A study of Homo sapiens with 16 samples.

Results

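The genes described here are 10 secreted ligands, receptors and antagonists of bone morphogenetic protein (BMP), activin and transforming growth factor beta (TGF-beta) signalling. They are the ligand genes BMP2, BMP4, INHBA, TGFB1, TGFB2 and TGFB3, the receptor genes TGFBR2 and TGFBR3, and the antagonist genes BAMBI and GREM1. Every probe set whose platform annotation gave 1 gene symbol equal to 1 of these names was taken, which gave 18 of the 19064 probe sets tested, for 10 of 11963 genes. Where a gene had several probe sets, the one with the highest mean over all 16 arrays leads the account and the others are given beside it.

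Ligands of this family are dimers that bring a type I and a type II receptor kinase together at the cell surface. The receptors then phosphorylate SMAD proteins, with SMAD1, SMAD5 and SMAD9 on the BMP side and SMAD2 and SMAD3 on the TGF-beta and activin side, and these enter the nucleus with SMAD4. Extracellular antagonists bind the ligands, and decoy receptors take up receptor places without signalling. In breast tissue the family takes part in growth arrest of epithelium, in epithelial to mesenchymal transition and in matrix deposition by stromal cells.

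The study asked what the membrane-anchored metalloproteinase inhibitor RECK does to gene expression in 4 human breast lines, each measured under 2 conditions with 2 Affymetrix U133 2.0 arrays per group. The invasive lines MDAMB231 (MDA-MB-231) and LM24175 carried, by stable infection, a construct that expresses RECK constitutively, or the empty vector (EV). LM24175 is a lung-metastatic line with MDAMB231 as its parental line, so the 2 invasive lines are not independent of each other. The poorly invasive lines Hs343T and Hs606T were transfected with an siRNA against RECK (siRECK) or a scramble siRNA (siSCR). In order, the 8 groups are MDAMB231 with the construct and with EV, LM24175 with the construct and with EV, Hs343T labelled siRECK and siSCR, and Hs606T labelled siRECK and siSCR. The labels call all 4 lines breast cancer lines. They say neither whether the infected lines are single clones or pools, nor how long after transfection the RNA was taken, nor whether both arrays of each group began as separate cultures. The p-values therefore rest on array-to-array spread alone, possibly technical, and 2 arrays per group limit the precision. The RNA came from whole cultures, in which fewer cells of a type and less RNA per cell cannot be told apart.

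RECK itself went against the siRNA labels. Its leading probe set was 44.5-fold higher on the siRECK-labelled than on the siSCR-labelled Hs343T arrays (limma, adjusted p = 8.85e-11). It was 5.29-fold higher on the siRECK-labelled than on the siSCR-labelled Hs606T arrays (adjusted p = 8.96e-06). The further RECK probe sets gave log2 differences of 0.46 (adjusted p = 0.0015) and 0.27 (adjusted p = 0.195) in Hs343T. In Hs606T they gave 0.17 (adjusted p = 0.514) and -0.10 (adjusted p = 0.861), so the label check rests mainly on the leading one. With the construct the leading probe set differed by 0.03 in MDAMB231 (adjusted p = 0.961) and by -0.42 in LM24175 (adjusted p = 0.179), on the log2 scale. Directions given for the siRNA lines are therefore those of the labels as deposited. Of 9 fibroblast and mesenchymal markers, 1 to 3 lay above the array median in the invasive groups, against all 9 in each of the 4 Hs343T and Hs606T groups. Of 6 epithelial markers, 5 lay above the array median in each invasive group and 2 to 4 in the Hs343T and Hs606T groups, and their mean ran from 8.91 to 9.29 on the invasive arrays and from 6.45 to 7.13 on the others. The epithelial marker EPCAM averaged 8.15 to 8.85 in the invasive groups and 4.10 to 4.67 in the Hs343T and Hs606T groups. KRT19, another of the 6, overlapped, at 8.97 to 11.25 in the invasive groups and 8.93 to 10.96 in the others. CDH1 (E-cadherin), a defining epithelial marker, was low in all, at group means of 3.84 to 3.91 in the invasive groups and 3.93 to 4.14 in the others. None of the 3 measured leukocyte markers lay above the array median in any group. MDAMB231 EV replicate 1 and LM24175 construct replicate 1 differed from their group partners in a shared way over all probe sets (r = 0.46). Between the arrays of these groups 1628 and 1077 probe sets differed by over 0.5, against 216 to 787 in the other 6. With 2 arrays per group the replicate 2 arrays give the same r, so these values do not tell which array of a pair deviated. The 2 replicate 1 arrays are called the deviating arrays from here on. Leaving out both was added after the data were seen, and the calls that change without them are given both ways.

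Of the 10 genes, 4 separated the kinds of line on their leading probe sets, as did 33.5% of all probe sets. BMP2 and BAMBI passed with a treatment, while TGFB1, TGFB3, TGFBR2 and TGFBR3 did neither in the fit of all 16 arrays. GREM1 and INHBA were far lower, and BMP4 and TGFB2 higher, in the invasive than in the poorly invasive lines. With treatment, BAMBI and BMP2 were the genes that passed the test (adjusted p under 0.05 over all probe sets, limma). Both rose with the RECK construct in LM24175, and in Hs343T BAMBI rose and BMP2 fell on the siRECK-labelled arrays. In each of these lines 3 of 18 probe sets passed, against 4.97% of all probe sets in LM24175 and 25.8% in Hs343T. No probe set of the 10 genes passed in MDAMB231 or in Hs606T in this fit, though with trended and robust moderation of the variances BMP2 passed in MDAMB231 (0.77, adjusted p = 0.0431).

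**Figure D1:**
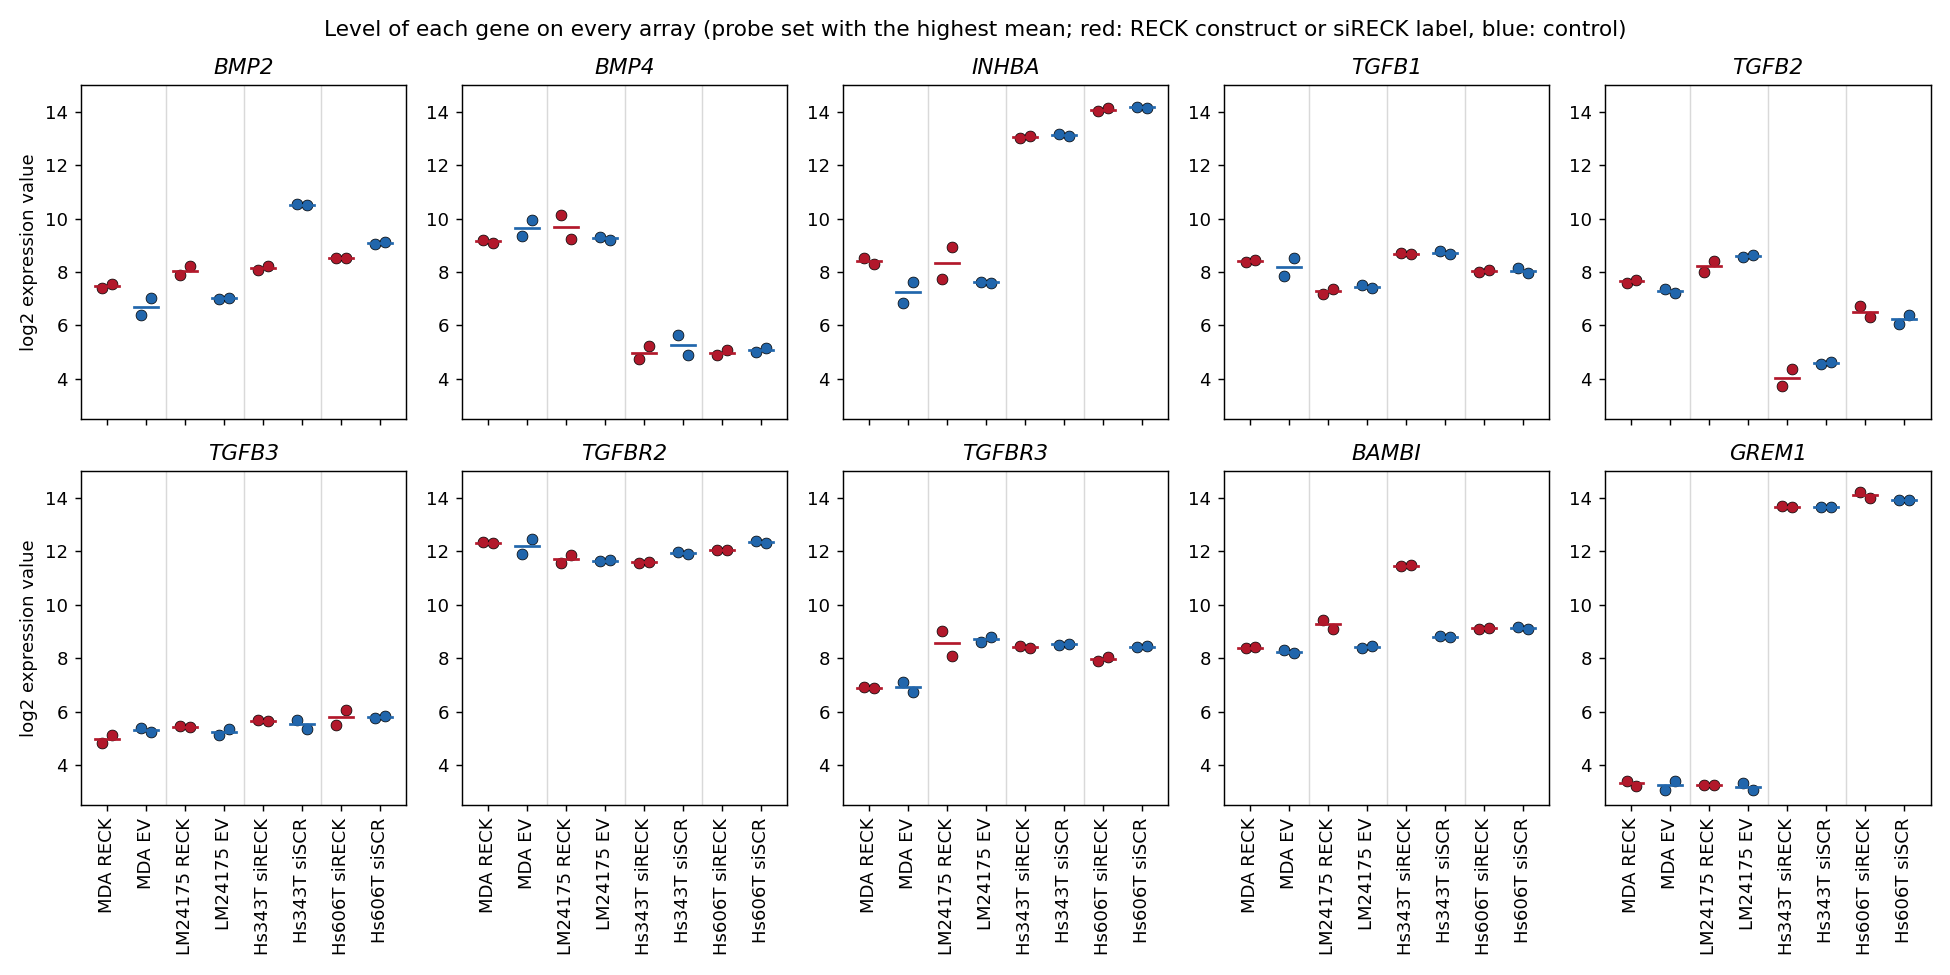
Log2 expression value of the leading probe set of each of the 10 genes on each array (points), with the group mean (line), in 8 groups, where MDA stands for MDAMB231 and EV for empty vector. GREM1 lies between 3.06 and 3.42 on the 8 arrays of the invasive lines and between 13.67 and 14.24 on the 8 arrays of the poorly invasive lines, and BAMBI stands highest on the siRECK-labelled Hs343T arrays, at 11.45 and 11.49.

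BAMBI and GREM1 carry the largest treatment difference and the largest difference between kinds of line among the 10 genes, and their promoters are shown for that reason. The windows run from 250 bases before to 50 bases after the start of the gene, 5′ to 3′ on the gene's strand, from RefSeq on GRCh38.p14. BAMBI lies at chr10:28677271-28677570 on the plus strand and GREM1 at chr15:32718234-32718533 on the plus strand. Capitals mark matches to GGCGCC, a GC-rich element that SMAD proteins can bind, and to CAGAC, the core of a SMAD binding element (GTCTG on the other strand).
BAMBI: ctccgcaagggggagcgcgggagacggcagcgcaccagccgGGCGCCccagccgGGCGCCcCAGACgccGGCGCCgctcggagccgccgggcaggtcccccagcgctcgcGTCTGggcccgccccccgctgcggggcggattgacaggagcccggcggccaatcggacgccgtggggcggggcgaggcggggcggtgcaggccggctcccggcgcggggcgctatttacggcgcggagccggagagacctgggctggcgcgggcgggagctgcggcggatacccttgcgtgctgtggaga
GREM1: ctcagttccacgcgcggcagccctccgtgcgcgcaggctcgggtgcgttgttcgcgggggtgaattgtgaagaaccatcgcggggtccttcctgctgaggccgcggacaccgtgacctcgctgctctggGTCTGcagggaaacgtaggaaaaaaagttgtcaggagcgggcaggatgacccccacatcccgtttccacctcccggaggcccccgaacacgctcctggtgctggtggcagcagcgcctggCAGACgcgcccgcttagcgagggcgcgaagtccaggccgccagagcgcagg
The BAMBI window held GGCGCC 3 times, beginning at positions -209, -196 and -181 from the start site, and CAGAC 2 times, at -189 and -140. Of the 35116 RefSeq promoter windows of this length, 19.2% held GGCGCC at least once and 0.871% held it 3 or more times. These shares are over windows of any base composition, while the BAMBI window is 80% G and C. The share among windows of like composition was not tested. The GREM1 window held CAGAC 2 times, at -121 and -1, a motif found in 45.3% of all windows, and no GGCGCC. Of the 10 genes, 9 matched a promoter entry, all but BMP2. A match is a description of the letters and not evidence of binding.

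Among the ligands, BMP2, which binds BMP receptors and induces bone and cartilage formation, varied with line and with treatment. Its leading probe set read 7.40 and 7.55 with the construct in MDAMB231, against 6.38 and 7.03 with EV. In LM24175 it read 7.90 and 8.21 with the construct, against 6.997 and 7.04 with EV. The construct arrays were above the EV arrays in both lines, and the groups did not overlap. In LM24175 BMP2 was 2.05-fold higher with the construct (95% interval 1.59 to 2.64, log2 difference 1.04 with SE 0.17, adjusted p = 0.0038), and its other probe set gave 1.05 (adjusted p = 0.0235). In MDAMB231 the differences were 0.77 (SE 0.17, adjusted p = 0.0927) and 0.52 (adjusted p = 0.415). The response in LM24175 minus that in MDAMB231 was 0.27 (95% interval -0.24 to 0.79, adjusted p = 0.619), so the lines were not shown to differ in this fit. That difference was 0.75 without both deviating arrays (adjusted p = 0.0241), and 1.20 on the other probe set (adjusted p = 0.0349). The construct difference of BMP2 in MDAMB231 was 0.44 without both deviating arrays (adjusted p = 0.103), with 0.17 on the other probe set (adjusted p = 0.791), and it was 1.09 without MDAMB231 EV replicate 2 alone (adjusted p = 0.0049). The other probe set lost its call in LM24175 without either EV array or without construct replicate 2 of that line, with values between 0.72 and 1.08.

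In the siRNA lines BMP2 was lower on the siRECK-labelled arrays, which carried the higher signal of the leading RECK probe set. With the construct, where BMP2 was higher, that RECK probe set gave no passing difference. Whether BMP2 follows RECK was not tested. BMP2 read 8.08 and 8.22 on the siRECK-labelled Hs343T arrays, against 10.53 and 10.50 on the siSCR-labelled ones. In Hs606T it read 8.54 and 8.52 on the siRECK-labelled arrays, against 9.06 and 9.11 on the siSCR-labelled ones. The siSCR-labelled Hs343T arrays were the highest of all 16, and the groups did not overlap in either line. BMP2 was 5.14-fold lower on the siRECK-labelled Hs343T arrays (95% interval 3.99 to 6.63, log2 difference -2.36 with SE 0.17, adjusted p = 4.31e-07), and its other probe set was 4.55-fold lower (adjusted p = 1.63e-05). In Hs606T the differences were -0.56 (adjusted p = 0.203) and -0.78 (adjusted p = 0.191). The siRECK response of Hs606T minus that of Hs343T was 1.81 (SE 0.24, adjusted p = 1.93e-04), and 1.40 on the other probe set (adjusted p = 0.0105), so the difference between lines itself passed. Without both deviating arrays, which are of other lines, both Hs606T differences stayed the same. They passed there only through a changed shared estimate of the spread. Leaving out either MDAMB231 EV array alone did the same for the leading probe set.

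BMP4, a BMP ligand close to BMP2 that acts in limb, bone and epithelial patterning, followed the kind of line. It read 9.20 and 9.09 with the construct and 9.34 and 9.95 with EV in MDAMB231, and 10.11 and 9.23 with the construct and 9.31 and 9.20 with EV in LM24175. In the poorly invasive lines it lay between 4.74 and 5.65 on all 8 arrays. The closest arrays of the 2 kinds of line were 3.44 apart, and the mean of the invasive lines was 4.35 above that of the poorly invasive lines. No treatment difference passed: they were -0.50 (adjusted p = 0.559) in MDAMB231, 0.41 (adjusted p = 0.576) in LM24175, -0.29 (adjusted p = 0.546) in Hs343T and -0.11 (adjusted p = 0.949) in Hs606T. The BMP4 values without both deviating arrays were -0.80 in MDAMB231 (adjusted p = 0.336) and -0.03 in LM24175 (adjusted p = 0.980). The arrays within LM24175 construct differed by 0.89, which is over the size of any of these differences.

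INHBA encodes the beta A subunit of activin A and inhibin A, and was low in the invasive lines. It read 8.51 and 8.30 with the construct in MDAMB231, against 6.84 and 7.62 with EV. In LM24175 it read 7.76 and 8.95 with the construct, against 7.63 and 7.61 with EV. It lay between 13.00 and 14.18 on the 8 arrays of Hs343T and Hs606T, a gap of 4.06 to the highest array of the invasive lines. The construct arrays of both invasive lines were above their EV arrays, while the siRECK-labelled arrays of both poorly invasive lines were slightly below their siSCR-labelled partners. The construct differences were 1.17 (SE 0.30, adjusted p = 0.161) in MDAMB231 and 0.73 (SE 0.30, adjusted p = 0.230) in LM24175, and the second probe set gave 0.74 (adjusted p = 0.351) and 0.95 (adjusted p = 0.0938) in the same order of lines. These calls depend on single arrays. INHBA, without both deviating arrays, was 0.78 higher with the construct in MDAMB231 (adjusted p = 0.0122) and 1.33 higher in LM24175 (adjusted p = 2.82e-04), with 1.38 on the second probe set in LM24175 (adjusted p = 0.00852). In MDAMB231 its call also changed without EV replicate 2, at 1.56, and without either LM24175 construct array, at an unchanged 1.17. In LM24175 the call of the leading probe set also changed without construct replicate 1 alone, at 1.33. That of the second probe set changed without this array, at 1.38, and without either MDAMB231 EV array, at an unchanged 0.95. Where the difference was unchanged, only the shared estimate of the spread had moved. The siRECK differences were -0.09 in each of Hs343T (adjusted p = 0.877) and Hs606T (adjusted p = 0.961), with 95% intervals from -0.75 to 0.57 in both, while the second probe set gave 0.26 (adjusted p = 0.593) and 0.35 (adjusted p = 0.736), of the opposite sign.

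Of the 3 TGF-beta ligands, TGFB1 and TGFB2 differed between lines, and no probe set of the 3 passed with a treatment in the fit used throughout. TGFB1, the most widely studied isoform, read 8.39 and 8.45 with the construct and 7.83 and 8.53 with EV in MDAMB231, and 7.17 and 7.38 with the construct and 7.51 and 7.40 with EV in LM24175. On the Hs343T arrays it lay between 8.68 and 8.78 and on the Hs606T arrays between 7.96 and 8.14. On this leading probe set LM24175 was the lowest of the 4 lines and Hs343T the highest, while MDAMB231 with EV overlapped Hs606T. On the other probe set siSCR-labelled Hs606T was lowest, at a mean of 5.32. With the construct that probe set gave -0.19 in MDAMB231 (adjusted p = 0.538) and 0.22 in LM24175 (adjusted p = 0.367). The leading one gave 0.24 and -0.18, the opposite signs. The treatment differences of the leading probe set lay between -0.18 and 0.24, and none passed. Without MDAMB231 EV replicate 2, which read 8.53, the construct difference in MDAMB231 was 0.59 (adjusted p = 0.0293). Without both deviating arrays it was -0.11 (adjusted p = 0.779), so its sign depends on which EV array is kept.

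TGFB2, a TGF-beta isoform that needs the co-receptor TGFBR3 for efficient binding, was highest in LM24175. Its leading probe set read 8.02 and 8.41 with the construct and 8.56 and 8.65 with EV in LM24175, and 7.60 and 7.71 with the construct and 7.35 and 7.20 with EV in MDAMB231. In Hs606T it read 6.71 and 6.31 on the siRECK-labelled arrays, against 6.07 and 6.39 on the siSCR-labelled ones. In Hs343T it read 3.74 and 4.36 on the siRECK-labelled arrays, against 4.56 and 4.64 on the siSCR-labelled ones. All 4 Hs343T values lay below the lower quartile of their array, where signal cannot be told from background, since no detection calls were used here. The construct differences were 0.38 in MDAMB231 (adjusted p = 0.501) and -0.39 in LM24175 (adjusted p = 0.376), and the response in LM24175 minus that in MDAMB231 was -0.77 (adjusted p = 0.180). In Hs343T the siRECK difference was -0.56 (adjusted p = 0.0619), and it passed at -0.86 without siRECK replicate 2 (adjusted p = 0.0099) and at -0.56 with trended and robust moderation (adjusted p = 0.04997). The further TGFB2 probe sets gave -0.02 (adjusted p = 0.961), 0.25 (adjusted p = 0.609) and -0.17 (adjusted p = 0.403) in Hs343T. Of the 4 probe sets of TGFB2, 1 lay below the lower quartile on 15 of 16 arrays and another on 16 of 16.

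TGFB3, the isoform best known from palate and wound repair, was low in every group. Its group means ran from 4.98 in MDAMB231 with the construct to 5.81 in siSCR-labelled Hs606T, and in 6 of the 7 steps of that order the neighbouring groups overlapped. No difference passed in any comparison.

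The receptor TGFBR2, the type II receptor kinase that binds TGF-beta and starts the signal, was high in every group. Its leading probe set lay between 11.55 and 12.47 on all 16 arrays, and the 2 kinds of line overlapped. It read 11.55 and 11.62 on the siRECK-labelled Hs343T arrays, against 11.98 and 11.91 on the siSCR-labelled ones, and 12.05 and 12.07 on the siRECK-labelled Hs606T arrays, against 12.39 and 12.32 on the siSCR-labelled ones. The siRECK-labelled arrays were below the siSCR-labelled arrays in both lines without overlap. The differences were -0.36 in Hs343T (adjusted p = 0.104) and -0.29 in Hs606T (adjusted p = 0.524). The Hs343T difference stayed at -0.36 without both deviating arrays or without either MDAMB231 EV array, all of other lines. Its call changed in those fits only through the shared estimate of the spread. On the second probe set the siRECK difference was -0.08 in Hs343T (adjusted p = 0.781), where the arrays overlapped, and -0.23 in Hs606T (adjusted p = 0.688). With the construct the leading probe set differed by 0.14 in MDAMB231 (adjusted p = 0.761) and by 0.06 in LM24175 (adjusted p = 0.915). The second probe set gave -0.78 in MDAMB231 (adjusted p = 0.0849) and -0.04 in LM24175 (adjusted p = 0.954), so in MDAMB231 the 2 probe sets differed in sign. They had the same sign in that line without both deviating arrays, at -0.14 (adjusted p = 0.564) and -0.95 (adjusted p = 0.105).

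TGFBR3, or betaglycan, presents TGF-beta ligands to TGFBR2 and also binds inhibin. It read 6.94 and 6.87 with the construct and 7.10 and 6.75 with EV in MDAMB231, and 9.01 and 8.10 with the construct and 8.63 and 8.80 with EV in LM24175. It read 7.89 and 8.05 on the siRECK-labelled Hs606T arrays, against 8.41 and 8.45 on the siSCR-labelled ones, and between 8.40 and 8.52 on the 4 Hs343T arrays. MDAMB231 stood apart below the other 3 lines. The treatment differences were -0.02 in MDAMB231 (adjusted p = 0.983), -0.16 in LM24175 (adjusted p = 0.820), -0.09 in Hs343T (adjusted p = 0.827) and -0.46 in Hs606T (adjusted p = 0.490). The LM24175 value without both deviating arrays was -0.61 (adjusted p = 0.00997), where the construct array left out had read 9.01, and the Hs606T value was the same with adjusted p = 0.0261. In that fit the response of TGFBR3 in LM24175 minus that in MDAMB231 was -0.77 (adjusted p = 0.0293), and that in Hs606T minus that in Hs343T was -0.37 (adjusted p = 0.0499998).

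The antagonist BAMBI encodes a membrane pseudoreceptor that resembles a type I receptor but lacks the kinase domain, and it is itself induced by BMP and TGF-beta signals. It read 8.37 and 8.42 with the construct in MDAMB231, against 8.31 and 8.19 with EV. In LM24175 it read 9.43 and 9.10 with the construct, against 8.39 and 8.47 with EV. In Hs343T it read 11.45 and 11.49 on the siRECK-labelled arrays, against 8.84 and 8.79 on the siSCR-labelled ones. In Hs606T it read 9.08 and 9.15 on the siRECK-labelled arrays, against 9.16 and 9.11 on the siSCR-labelled ones. Thus 7 of the 8 group means lay between 8.25 and 9.27, and siRECK-labelled Hs343T stood alone at 11.47. BAMBI was 1.79-fold higher with the construct in LM24175 (95% interval 1.53 to 2.09, log2 difference 0.84 with SE 0.10, adjusted p = 8.58e-04). It was 6.31-fold higher on the siRECK-labelled Hs343T arrays (95% interval 5.40 to 7.37, log2 difference 2.66 with SE 0.10, adjusted p = 1.43e-09). In MDAMB231 the difference was 0.15 (adjusted p = 0.625) and in Hs606T -0.02 (95% interval -0.24 to 0.21, adjusted p = 0.978).

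The lines differed in these BAMBI responses by the test of the difference itself. The siRECK response of Hs606T minus that of Hs343T was -2.67 (SE 0.15, adjusted p = 1.04e-07), and it kept its call in every alternative run. The construct response of LM24175 minus that of MDAMB231 was 0.70 (SE 0.15, adjusted p = 0.0293). That call was lost without both deviating arrays (0.47, adjusted p = 0.0740). It was also lost without MDAMB231 EV replicate 1, MDAMB231 construct replicate 1, LM24175 construct replicate 1 or either LM24175 EV array, where the value lay between 0.53 and 0.73 and the adjusted p reached 0.114. With only the arrays compared in the fit its adjusted p was 0.185, and the LM24175 difference of BAMBI had adjusted p = 0.0548.

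GREM1 encodes gremlin, a secreted protein that binds BMP2 and BMP4 and keeps them from their receptors, and is made by stromal cells. On the arrays of the invasive lines it lay between 3.06 and 3.42, below the lower quartile on all 8, so its signal there cannot be told from background. In Hs343T it read 13.68 and 13.67 on the siRECK-labelled arrays and 13.68 and 13.67 on the siSCR-labelled ones, and in Hs606T 14.24 and 14.002 on the siRECK-labelled arrays and 13.92 and 13.94 on the siSCR-labelled ones. The closest arrays of the invasive and poorly invasive lines were 10.25 apart, and the second probe set gave a gap of 10.22. The siRECK differences were 0.00 in Hs343T (95% interval -0.28 to 0.29, adjusted p = 0.990) and 0.19 in Hs606T (95% interval -0.09 to 0.47, adjusted p = 0.664). The fibroblast and mesenchymal markers moved with GREM1 between the kinds of line when taken as the mean over 9 markers. This mean ran from 5.56 to 6.85 on the arrays of the invasive lines and from 11.68 to 12.72 on those of the poorly invasive lines. VIM, 1 of the 9, hardly differed, at group means of 14.18 to 14.38 in the invasive and 14.42 to 14.48 in the poorly invasive lines. The part of these markers in the GREM1, INHBA, BMP4 and TGFB2 levels was not tested. Of the 10 leading probe sets, 4 did not overlap between the 8 arrays of the invasive lines and the 8 of the poorly invasive lines, and 8 of all 18 probe sets did not, against 33.5% of all probe sets. Each kind of line was treated in its own way, so kind of line and kind of treatment cannot be told apart in that comparison, and it was given no test.

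**Figure D2:**
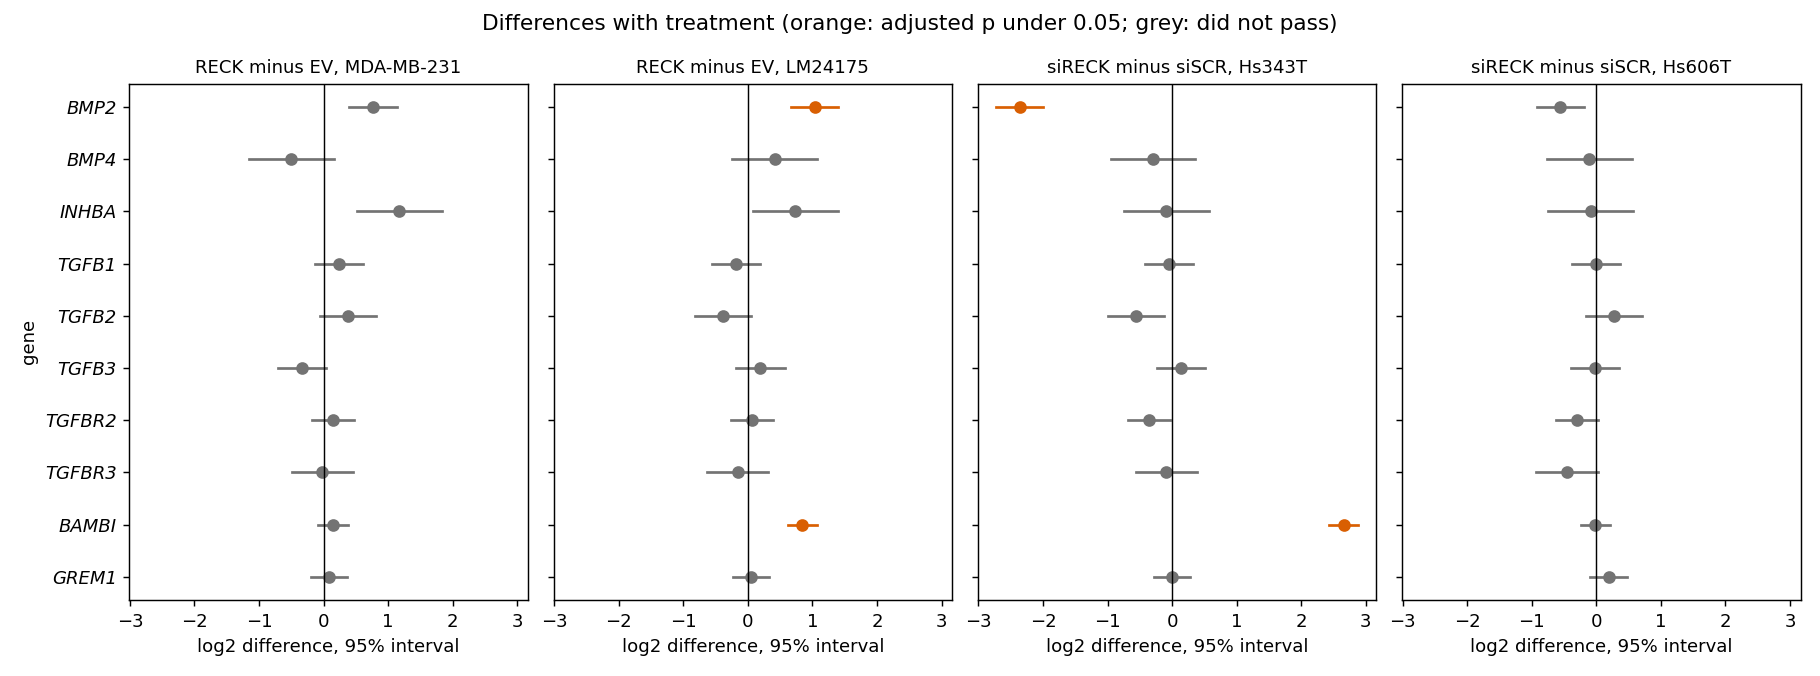
Log2 difference of the leading probe set (point) with its 95% interval (bar) for each of the 10 genes in the 4 treatment comparisons, construct minus empty vector and siRECK minus siSCR as labelled. BAMBI in Hs343T at 2.66 and BMP2 in Hs343T at -2.36 lie farthest from 0, and GREM1 in Hs343T lies at 0.00.

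Counted over the 18 probe sets, the treatment comparisons gave few calls. With the construct in MDAMB231 0 of 18 passed, against 0.247% of all probe sets, with a smallest adjusted p of 0.0849 and 5 at an unadjusted p under 0.05. In LM24175 3 of 18 passed, against 4.97% of all probe sets, and all 3 were higher, against 2.64%. In Hs343T 3 of 18 passed, which is a smaller share than the 25.8% of all probe sets that passed there, with 1 higher (11.1% of all) and 2 lower (14.7% of all). In Hs606T 0 of 18 passed, against 0.986%, with 3 at an unadjusted p under 0.05. The arrays of the groups compared did not overlap for 11 of 18 probe sets in MDAMB231 (37.6% of all probe sets), 10 in LM24175 (46.5%), 11 in Hs343T (62.9%) and 10 in Hs606T (46.8%), and in Hs343T this share was near that of all probe sets. The median difference of the 18 probe sets was 0.14 in MDAMB231, 0.06 in LM24175, -0.09 in Hs343T and -0.02 in Hs606T, and that of all probe sets was 0.00, 0.00, -0.05 and -0.01 in the same order. For the difference between construct responses 1 of 18 passed, against 2.87%, and for that between siRECK responses 3 of 18, against 17.4%. Without both deviating arrays the counts were 1 in MDAMB231, 6 in LM24175, 4 in Hs343T, 3 in Hs606T, 3 for the construct responses and 4 for the siRECK responses. Of all probe sets, 0.546%, 5.4%, 31.3%, 2.16%, 2.3% and 23.3% passed in the same order.

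**Figure D3:**
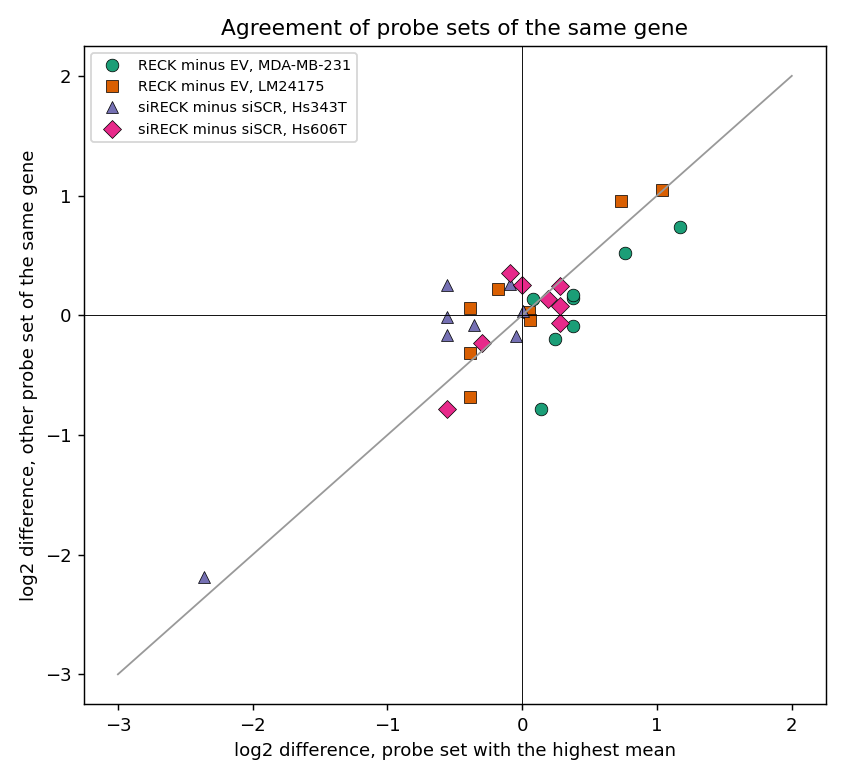
Log2 differences of the leading probe set (horizontal axis) and of the other probe sets of the same gene (vertical axis), 1 point for each further probe set and treatment comparison, with the line of equality. The BMP2 point of Hs343T lies at -2.36 and -2.19, and the TGFBR2 point of MDAMB231 at 0.14 and -0.78.

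Between the 2 invasive lines with EV, 4 of the 10 genes differed: TGFB2 and TGFBR3 were higher and TGFB1 and TGFBR2 lower in LM24175 than in MDAMB231. TGFBR3 was 3.45-fold higher (95% interval 2.48 to 4.79, log2 difference 1.79, adjusted p = 1.47e-04). TGFB2 was 2.51-fold higher (95% interval 1.85 to 3.40, log2 difference 1.33, adjusted p = 6.69e-04), with 1.16 on a further probe set (adjusted p = 5.06e-04). Another TGFB2 probe set gave 1.23 (adjusted p = 0.0118) but lay below the lower quartile on 15 of 16 arrays, where signal cannot be told from background, and the fourth gave -0.10 (adjusted p = 0.677). TGFB1 was 1.65-fold lower (adjusted p = 0.0117) and its other probe set gave -0.24 (adjusted p = 0.171). TGFBR2 was 1.45-fold lower (adjusted p = 0.0267), with -0.97 on its second probe set (adjusted p = 0.0015). In all 7 of 18 probe sets passed, against 17.7% of all, with 4 higher (8.13% of all) and 3 lower (9.59% of all), and the arrays did not overlap for 11 of 18 (53.5% of all). BMP2, BMP4, INHBA, TGFB3, BAMBI and GREM1 gave no call, with leading differences from -0.39 to 0.38. Without MDAMB231 EV replicate 2, or without LM24175 EV replicate 2, TGFB1 and the TGFB2 probe set at 1.23 lost their calls. The leading probe set of TGFBR2 lost its call without either of these or LM24175 EV replicate 1, with values from -0.55 to -0.25 in those fits. BMP2 gained a call at 0.63 (adjusted p = 0.0067) without MDAMB231 EV replicate 2.

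Between the 2 poorly invasive lines with siSCR, 6 of the 10 genes had a passing probe set: TGFB2, INHBA, TGFBR2 and BAMBI were higher and BMP2 and TGFB1 lower in Hs606T than in Hs343T. TGFB2 was 3.09-fold higher (log2 difference 1.63, adjusted p = 5.42e-05), from a Hs343T signal below the lower quartile, and 0.56 higher on another probe set (adjusted p = 0.0212), which lost its call without replicate 2 of either siSCR group. With the mean of its 4 probe sets in place of the leading one the TGFB2 difference was 0.53. INHBA was 2.05-fold higher (adjusted p = 0.0194), with 0.72 on its second probe set (adjusted p = 0.0785, and 0.0105 without both deviating arrays). BMP2 was 2.69-fold lower (adjusted p = 3.69e-05), with -1.33 on its other probe set (adjusted p = 7.62e-04). TGFB1 was 1.60-fold lower (adjusted p = 0.0087), with -0.45 on its other probe set (adjusted p = 0.0081). For TGFBR2 the second probe set passed at 0.50 (adjusted p = 0.0356) and the leading one did not, at 0.41 (adjusted p = 0.0551, and 8.09e-04 without both deviating arrays), and the call of the second was lost without replicate 1 of either siSCR group. BAMBI was 1.25-fold higher (adjusted p = 0.0308), and it lost this call without any 1 of the 4 siSCR arrays, after quantile normalization and after centring. In all 9 of 18 probe sets passed, against 33.3% of all, with 5 higher (17.3% of all) and 4 lower (16% of all), and the arrays did not overlap for 16 of 18 (68.5% of all). The count was 5 without either Hs343T siSCR array or without Hs606T siSCR replicate 2. INHBA lost its call without any 1 of the 4 siSCR arrays, at values from 1.004 to 1.06, and TGFB1 without Hs343T siSCR replicate 1 or Hs606T siSCR replicate 2.

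**Figure D4:**
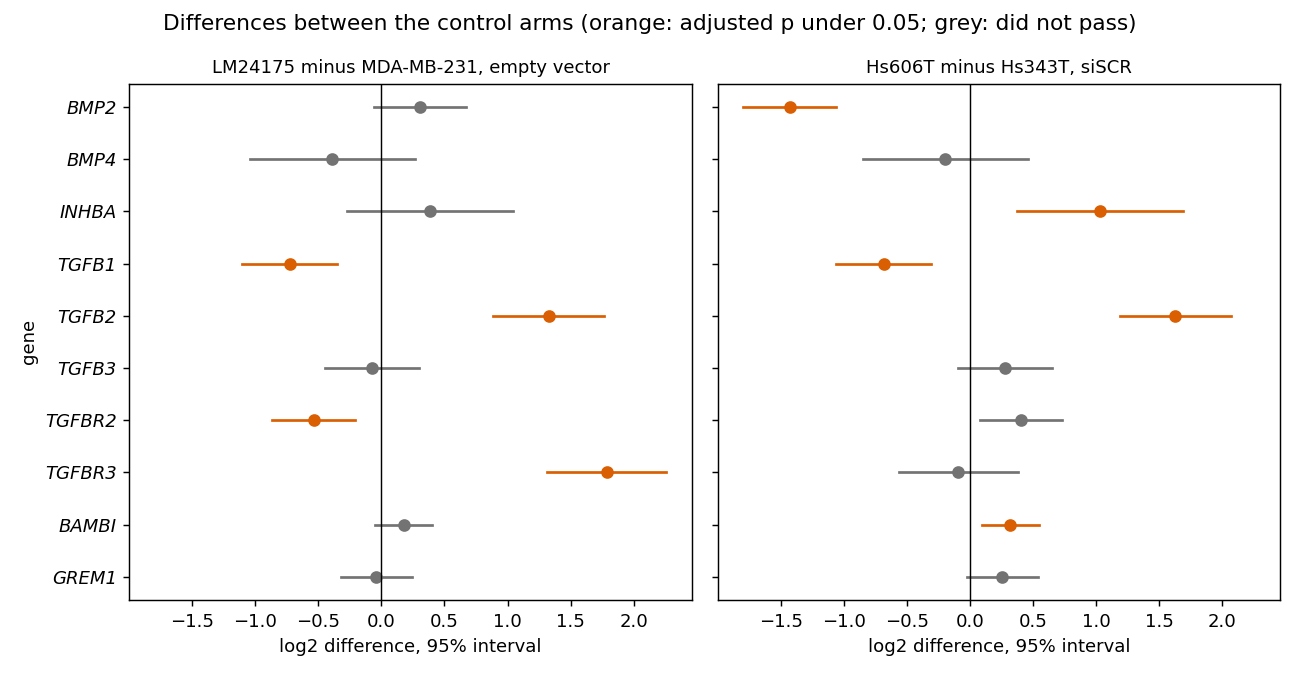
Log2 difference of the leading probe set (point) with its 95% interval (bar) for each of the 10 genes between the control groups, LM24175 minus MDAMB231 with empty vector (EV) and Hs606T minus Hs343T with siSCR. TGFBR3 lies at 1.79 and TGFB2 at 1.33 in the first panel, and TGFB2 lies at 1.63 and BMP2 at -1.43 in the second.

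The rest of the pathway was read from 7 lists of 99 further genes, of which 84 were measured, and the others were not analysed here. Each gene was read from its probe set with the highest mean, while the shares beside the counts are over all probe sets. With the construct in MDAMB231, 1 of 84 passed (1.19%), against 0.247% of all probe sets. This was the secreted glycoprotein gene FSTL1, which was 0.58 higher (adjusted p = 0.0429). In LM24175 2 rose and 1 fell, which is 3.57% of the 84, against 4.97% of all probe sets. The activin antagonist FST (follistatin) fell by 0.88 (adjusted p = 7.47e-04), and the TGF-beta targets IGFBP3 and LMCD1 rose by 0.72 (adjusted p = 0.00715) and 0.54 (adjusted p = 0.0065), 2 of 11 measured targets. The 9 measured BMP targets had a median difference of 0.07 in MDAMB231 and 0.02 in LM24175. Without both deviating arrays 1 construct array is left in LM24175, so no count of passing pathway genes is given for this comparison.

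In Hs343T, where 25.8% of all probe sets passed, 10 of the 84 pathway genes were higher and 5 lower on the siRECK-labelled arrays. Of the 13 SMADs, co-repressors and ligases 4 were higher and 1 lower. SMAD3, a signal carrier of TGF-beta and activin, fell by 1.74 (adjusted p = 7.14e-06), and all 4 of its probe sets had this sign. SMAD1, a signal carrier of BMPs, was 1.21 higher on its leading probe set (adjusted p = 1.31e-04), while its other probe set had the opposite sign. The co-repressor TGIF1 rose by 0.98 (adjusted p = 0.0013) and the ubiquitin ligase SMURF1 by 0.69 (adjusted p = 3.46e-04). Of the 9 measured BMP targets 1 was higher and 2 lower. The homeobox gene MSX1 rose by 2.06 (adjusted p = 2.07e-04), and the transcription regulators ID2 and HEY1 fell by 0.74 (adjusted p = 0.0042) and by 0.58 (adjusted p = 0.0439). Of the TGF-beta targets CCN2 rose by 0.56 (adjusted p = 1.98e-04) and IGFBP3 by 0.59 (adjusted p = 0.0043). Among receptors the BMP type II receptor BMPR2 rose by 0.91 (adjusted p = 1.10e-04) and the activin type II receptor ACVR2A fell by 0.55 (adjusted p = 0.0037). These differences were the same without both deviating arrays, which are of other lines.

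In Hs606T 1 of 84 passed, LMCD1, which rose by 0.73 on the siRECK-labelled arrays (adjusted p = 0.0029). Of all probe sets 0.986% passed in Hs606T in the fit of all 16 arrays. Between the siRECK responses of Hs606T and Hs343T, 4 of 84 genes were higher and 6 lower, which is 11.9%, against 17.4% of all probe sets. SMAD3 was 1.87 higher (adjusted p = 1.55e-04), and MSX1 at -1.80 (adjusted p = 0.0103), TGIF1 at -1.16 (adjusted p = 0.0073), SMAD1 at -1.04 (adjusted p = 0.0078) and BMPR2 at -1.01 (adjusted p = 0.0013) were lower. Between the construct responses of LM24175 and MDAMB231, FST at -0.97 (adjusted p = 0.0080) and FSTL1 at -0.83 (adjusted p = 0.0116) were lower and LMCD1 at 0.63 (adjusted p = 0.0315) was higher. These were 3 of 84 (3.57%), against 2.87% of all probe sets.

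In LM24175 with EV 16 of 84 pathway genes were higher and 11 lower than in MDAMB231 with EV, which is 32.1% of them. Of all probe sets 17.7% passed (8.13% higher and 9.59% lower), and with 1 probe set per gene 2489 of 11963 genes passed. Of the 9 measured BMP targets 5 were higher and none lower: ID3 by 2.18 (adjusted p = 0.0013), ID2 by 1.64 (adjusted p = 2.84e-05), ID1 by 1.23 (adjusted p = 0.0055), HEY1 by 0.74 (adjusted p = 0.0193) and MSX2 by 0.67 (adjusted p = 0.0410). The median over these 9 was 0.67, against -0.02 for all probe sets. Without both deviating arrays 3 of them passed, and HEY1 (0.50, adjusted p = 0.0568) and MSX2 (0.52, adjusted p = 0.208) did not. Of the 11 TGF-beta targets 4 were higher and 3 lower, with TAGLN at 1.80 (adjusted p = 2.7e-06), TGFBI at 1.46 (adjusted p = 3.06e-04) and ANGPTL4 at 1.19 (adjusted p = 3.73e-06) higher and IGFBP3 at -1.15 (adjusted p = 8.18e-05) lower. Both SMADs that passed, SMAD4 at -0.78 (adjusted p = 1.44e-04) and SMAD2 at -0.76 (adjusted p = 1.17e-04), were lower. INHBB, the activin beta B subunit, was lower at -2.16 (adjusted p = 1.32e-05).

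In siSCR-labelled Hs606T 16 of 84 genes were higher and 12 lower than in siSCR-labelled Hs343T, which is 33.3% of them. Of all probe sets 33.3% passed (17.3% higher and 16% lower), and with 1 probe set per gene 4408 of 11963 genes passed. Of the 12 genes of latent TGF-beta binding and activation 7 were higher and 1 lower, with a list median of 0.64 against -0.03 for all probe sets. The proteoglycan genes BGN at 2.49 (adjusted p = 4.26e-08) and DCN at 1.505 (adjusted p = 4.89e-04) were higher, both read from cross-hybridising probe sets, as was LTBP4 at 1.12 (adjusted p = 0.0065). LRRC32, which holds latent TGF-beta at the cell surface, was 0.94 higher (adjusted p = 1.68e-04). The 9 measured BMP targets had a median difference of 0.09. INHBB was 1.71 higher (adjusted p = 2.42e-05), FST lower at -1.19 (adjusted p = 3.72e-06), ACVR2A lower at -1.13 (adjusted p = 1.30e-05) and BMPR2 higher at 1.11 (adjusted p = 2.08e-05). Leaving out both deviating arrays, which are of other lines, did not change these differences.

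**Figure D5:**
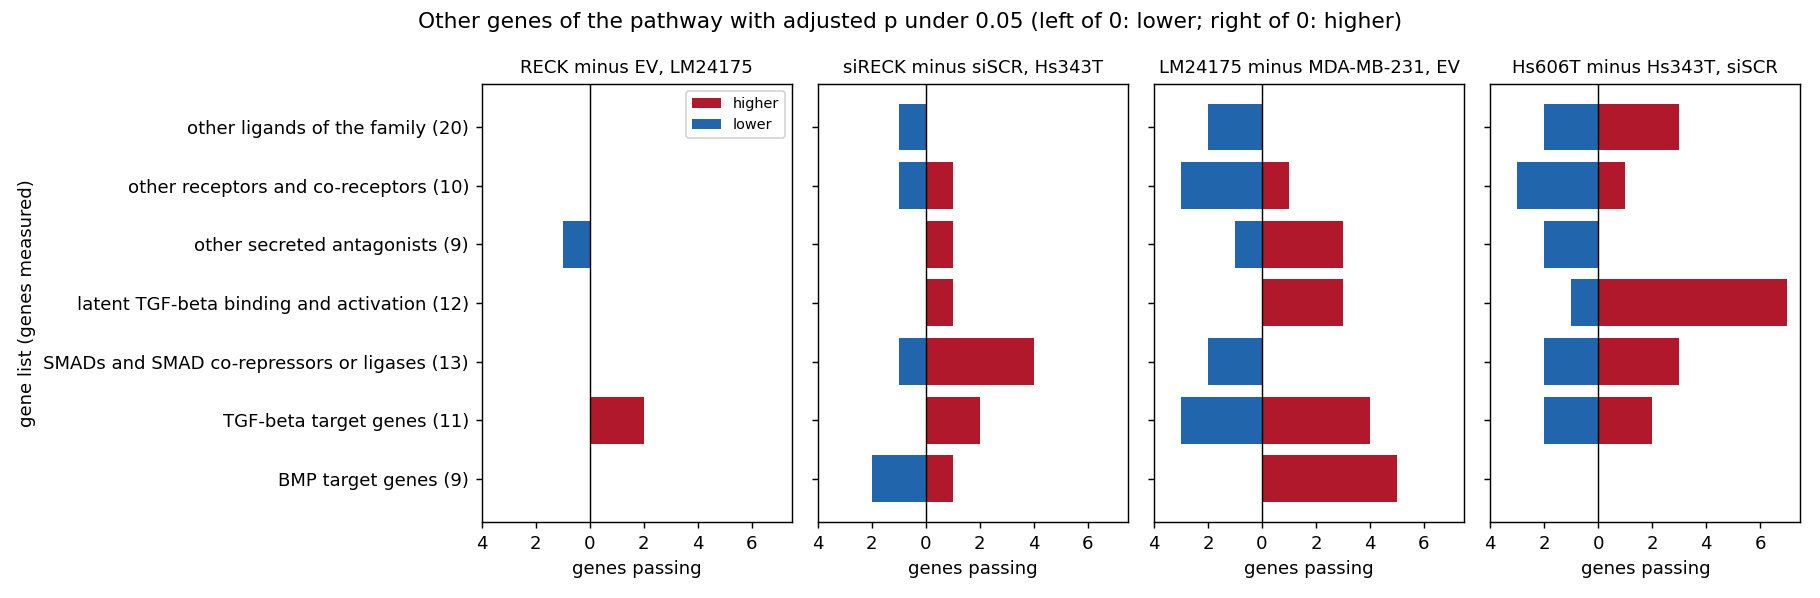
Number of pathway genes outside the 10 with an adjusted p under 0.05, by list (rows, with the number measured) and comparison (panels), with lower genes to the left of 0 and higher genes to the right. In LM24175 against MDAMB231 with empty vector (EV) 5 of 9 BMP targets are higher, and in Hs606T against Hs343T with siSCR 7 of 12 genes of latent TGF-beta binding and activation are higher.

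The genes whose 8 group means followed each of the 10 most closely were named by Pearson correlation. These correlations rest on 8 means that share the same 16 arrays and the split between kinds of line, and they are descriptions. BAMBI was followed by TBC1D9 (r = 0.974) and SLC15A3 (r = 0.973), and BMP2 by AKAP4 and PVALB (both r = 0.975), whose own group means lay between 3.56 and 3.998, near the background. GREM1 was followed by KLHL9 and the fibroblast marker THY1 (both r = 0.9997), and 686 genes had an r over 0.95 with it. BMP4 was followed by CHML (r = 0.999) and MDM1 (r = 0.998), with 910 genes over 0.95, and INHBA by LRP1 (r = 0.998) and NRIP3 (r = 0.997), with 544. TGFB2 was followed by ACAP2 (r = 0.995) and NCBP3 (r = 0.994), TGFB1 by MOGS (r = 0.976) and DOCK5 (r = 0.974), and TGFB3 by GOLGA2 (r = 0.968) and CCDC33 (r = 0.967). For the receptors, which do not follow the split between kinds of line, TGFBR2 was followed by CNNM4 (r = 0.975) and PGPEP1 (r = 0.965), with 3 genes over 0.95, and TGFBR3 by DLC1 (r = 0.979) and RECQL (r = 0.962), with 7.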

How the data were processed

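Values were used as deposited, on a log2 scale recognised from their range (array medians 6.42 to 6.57). The submitters' processing notes name Partek as the software the authors used. Its version, and how probes were summarised and normalized, is not given in the sources used here. Of 22277 probe sets, 19070 had 1 gene symbol in the platform annotation, 1043 had several and 2164 were not listed. The table's 62 control probe sets were left out, and the remaining 19064 with 1 symbol were tested, unscaled and unfiltered. The fit of 8 group means on all 16 arrays used limma 3.58.1 in R 4.3.3 (lmFit, contrasts, eBayes). Residual degrees of freedom were 8 and prior ones 4.04. Tests were 2-sided with Benjamini-Hochberg adjustment over all probe sets of a comparison. Folds are 2 to the power of log2 differences. Figures were drawn with matplotlib 3.10.9 and tables handled with pandas 2.3.3 and numpy 2.4.6 under Python 3.11.15.

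The 10 members and all lists were chosen with earlier results of these data known. The rule for named genes takes all 10 members whatever their values, RECK, up to 4 passing genes of each list in each line comparison, and for each member the 2 genes with the most similar group means. MSX2 falls outside it and was named after its value was seen. Replicate numbers were checked as pairs: deviations of same-numbered arrays within a line correlated at -0.05 to 0.01, so no shared deviation was seen. Whether same-numbered arrays were cultured or processed together was not tested. The procedure was tested on simulated data. Alternatives were quantile normalization, centring of arrays, the mean of or 1 probe set per gene, eBayes with trend and robust, a filter on the lowest 0.25 of level, a replicate block, only the arrays compared, a 1.5-fold minimum, leaving out each array, and, added later, leaving out both deviating arrays.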

Additional observations from a re-analysis of the deposited data

Results flagged for a closer look

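Among the 10 genes, the test of the difference between the responses of 2 lines passed 4 times, for BAMBI and BMP2 (limma, adjusted p under 0.05). For the construct responses 1 of 18 probe sets passed, against 2.87% of all, and for the siRECK responses 3 of 18, against 17.4%. The construct response of BAMBI was 0.70 higher in LM24175 than in MDAMB231 (adjusted p = 0.0293), and this call was lost in 5 of the fits that left out 1 array. The siRECK response of BAMBI was -2.67 in Hs606T relative to Hs343T (adjusted p = 1.04e-07). The siRECK response of BMP2 in Hs606T minus that in Hs343T was 1.81 (adjusted p = 1.93e-04), and 1.40 on its other probe set (adjusted p = 0.0105). In Hs343T the arrays labelled siRECK carried the higher RECK signal, so the direction of each siRECK response is that of the labels as deposited.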

How the results depend on the processing

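Over 3600 alternative values of single probe sets, 3501 kept their side of the threshold, 46 lost the call, 53 gained it and 0 called values changed sign. The sign turned without a call in 101 of the alternative values. Of the 18 probe sets, the count that passed between LM24175 and MDAMB231 with empty vector was 4 with only the arrays compared, against 7. Between Hs606T and Hs343T with siSCR it was 5 with a 1.5-fold minimum, against 9. With 1 probe set per gene only 10 values of these genes are tested, and 4 and 5 of them passed in these comparisons, the same numbers as for the 10 leading probe sets in the fit of all probe sets; with the mean of probe sets 4 and 6 passed. For the construct it was 1 in MDAMB231 with trend and robust, against 0, and with only the arrays compared 1 in LM24175, against 3, and 0 for the difference between construct responses, against 1. Without both deviating arrays, chosen after seeing the data, it was 1 for the construct in MDAMB231, 6 in LM24175, 3 for siRECK in Hs606T and 3 for the difference between construct responses. Leaving out 1 array gave 0 to 3 in MDAMB231, 2 to 5 in LM24175, 3 to 4 in Hs343T, 0 to 1 in Hs606T, 4 to 7 between the invasive lines, 5 to 11 between the poorly invasive lines, 0 to 2 for the construct responses and 3 to 5 for the siRECK responses. In MDAMB231 the array that gave 3 was EV replicate 2. With the replicate block the counts were 10 between the poorly invasive lines (TGFBR2 gained, adjusted p = 0.0489), 7 between the invasive lines and otherwise those of the fit without the block. Over all probe sets, 47 passed in MDAMB231, against 114 with trend and robust, 0 with only the arrays compared and 2 to 755 without 1 array. In LM24175 948 passed, against 204 with only the arrays compared and 284 to 1347 without 1 array, and for the construct responses 547, against 26 and 131 to 1699. In Hs606T 188 passed, against 72 with only the arrays compared, 57 to 261 without 1 array and 412 without both deviating arrays. The causes of these shifts were not tested. GREM1 in the invasive lines, TGFB2 in Hs343T and 2 further TGFB2 probe sets lay below the lower quartile of most or all of those arrays, which limits what can be read there.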
